A study of Mus musculus with 26 samples.

Results

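In E14 mouse embryonic stem cells, 21857 regions carried the same coordinates in the region sets of both sequential ChIP orders, named by the antibodies in turn, so that K4-K27 began with H3K4me3 and K27-K4 began with H3K27me3. Of these shared regions, 11334 (51.9%) overlapped a region of total H3K4me3 by at least 1 bp and no region of total H3K27me3, and these are the regions described here. The paper reports far fewer shared peaks in these cells, after a filter on enrichment and an overlap of replicates. Its class with H3K4me3 alone rests on independent totals from more cells. The shared regions here are therefore not the paper's bivalent set. The ends written into the region names were narrower than the coordinate columns at 30.1% of members and 38.0% of shared regions, and the coordinate columns were used. At those members 100% of values came out as whole reads with the width of the coordinate columns and 8.41% with that of the names, so the deposited densities were scaled by the coordinate columns. Another 2774 shared regions (12.7%) overlapped both totals, 2436 (11.1%) overlapped total H3K27me3 alone and 5313 (24.3%) overlapped neither. The choice rested on E14 region sets, so E14 values are given as a description without a test. The rule used no value of the WT and DKO clones, although the members were chosen with earlier results of these data known. The tests below use clone libraries alone.

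H3K4me3 is laid down by SET1 and MLL complexes at CpG-rich promoters and is found at active genes and at genes held ready for activation. H3K27me3 is laid down by Polycomb repressive complex PRC2 and accompanies repression of developmental genes. Nucleosomes that carry both marks are called bivalent, and sequential ChIP (reChIP) recovers them by pulling down with an antibody against each mark in turn. A region that is marked by total H3K4me3 but not by total H3K27me3 is therefore a place where a reChIP signal and the H3K27me3 total differ.

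E14 is an established mouse embryonic stem cell line, grown here in serum and LIF. The E14 libraries came from the non-clonal line in replicates 1 and 2. WT clones 57 and 58 and DKO clones 43 and 53 were derived from E14 cells, and the DKO clones lack both DPPA2 and DPPA4, a pair of DNA-binding proteins of early embryonic cells. Each clone is a single clone. The p-values rest on the spread between libraries of these clones, moderated by a variance estimated over all shared regions. A very small p-value therefore does not come from the few clones of 1 region alone. Chromatin was cut to mononucleosomes with MNase. After the first ChIP, 10% was set aside as the in-line total, and the rest went into the second ChIP. The paper describes the in-line totals as noisy, with an input near the lower limit for a clear signal. It classed its regions with independent totals instead. A missing region of total H3K27me3 therefore does not show that the mark is absent. An IgG–IgG reChIP was available for E14 cells and for WT clone 57. The 4 clones were sequenced in the same batch, and E14 replicates 1 and 2 in separate batches from each other and from the clones, so that sequencing batch and the difference between E14 cells and clones cannot be told apart. The H3K4me3 antibody has been described to bind H3K4me2 as well, which touches every H3K4me3 ChIP below.

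Values are log2 RPM (reads scaled to library size) per kb of region, without subtraction of the IgG–IgG signal. A difference of 1 is a change by a factor of 2. Between 6741245 and 47903462 reads stood behind a library, and the median member held 17 to 616 reads per library. Total H3K4me3 was present in every line at the pluripotency genes Pou5f1 (1.33 and 1.83 in E14 cells, 2.38 to 3.70 in the clones) and Nanog (1.10 and 1.68, and 1.42 to 2.67), both defining genes of embryonic stem cells. The Dppa2 promoter region (chr16:48309751-48312750) held total H3K4me3 of 1.94 and 0.88 in WT and 2.14 and 1.33 in DKO clones. A mark at a promoter does not show whether the protein is made, so this does not check the deletion.

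Sequences of 200 bases are printed for 9 members that carry the main patterns, from the RefSeq GRCm38.p6 genome, 5′ to 3′ on the strand of the gene across its promoter or, for regions away from promoters, at the centre of the region on the plus strand. Capitals mark CG dinucleotides, the target of CpG-binding subunits of H3K4 methyltransferase and Polycomb complexes. Etaa1 (an activator of the ATR kinase), Tia1 (an RNA-binding protein of stress granules) and Psma5 (a proteasome subunit) are shown as members with high total H3K4me3 and little H3K27me3 in every clone.
Etaa1 (chr11:17953876-17954075, minus strand, 11 CG): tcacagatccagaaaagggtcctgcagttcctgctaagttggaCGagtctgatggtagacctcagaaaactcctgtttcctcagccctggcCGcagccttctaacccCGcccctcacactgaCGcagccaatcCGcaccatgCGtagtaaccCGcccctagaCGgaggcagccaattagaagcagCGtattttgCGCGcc
Tia1 (chr6:86404019-86404218, plus strand, 8 CG): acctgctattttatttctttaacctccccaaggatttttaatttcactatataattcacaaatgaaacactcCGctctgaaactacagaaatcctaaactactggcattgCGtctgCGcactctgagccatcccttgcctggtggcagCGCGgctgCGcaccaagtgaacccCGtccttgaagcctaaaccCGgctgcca
Psma5 (chr3:108256726-108256925, plus strand, 16 CG): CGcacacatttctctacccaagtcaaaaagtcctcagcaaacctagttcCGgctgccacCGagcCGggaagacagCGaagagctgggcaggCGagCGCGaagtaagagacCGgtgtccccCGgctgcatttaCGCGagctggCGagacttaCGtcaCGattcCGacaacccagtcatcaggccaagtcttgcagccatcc

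Klf4 (a pluripotency factor), Fgf12 (a fibroblast growth factor homologous factor) and Spag6 (a protein of the sperm tail) are shown as members in which both reChIP orders were high in WT clones.
Klf4 (chr4:55532476-55532675, minus strand, 25 CG): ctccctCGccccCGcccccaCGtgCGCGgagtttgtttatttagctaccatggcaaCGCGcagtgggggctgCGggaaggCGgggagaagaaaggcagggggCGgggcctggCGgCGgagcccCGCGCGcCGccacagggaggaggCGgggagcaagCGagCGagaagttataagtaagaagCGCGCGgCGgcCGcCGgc
Fgf12 (chr16:28564952-28565151, minus strand, 22 CG): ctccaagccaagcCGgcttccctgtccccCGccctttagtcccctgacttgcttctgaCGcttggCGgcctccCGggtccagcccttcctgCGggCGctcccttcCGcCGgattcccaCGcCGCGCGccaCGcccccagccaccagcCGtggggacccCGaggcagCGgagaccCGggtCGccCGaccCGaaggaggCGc
Spag6 (chr2:18698822-18699021, plus strand, 12 CG): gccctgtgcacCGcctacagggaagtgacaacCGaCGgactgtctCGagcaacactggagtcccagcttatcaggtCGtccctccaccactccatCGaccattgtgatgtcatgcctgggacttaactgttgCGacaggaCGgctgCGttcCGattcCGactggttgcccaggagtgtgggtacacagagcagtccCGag

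Syce1 (a protein of the meiotic synaptonemal complex) and the centres of the regions near Gm1979 and near Edn1 are shown as members that fell in the DKO clones.
Syce1 (chr7:140787855-140788054, minus strand, 12 CG): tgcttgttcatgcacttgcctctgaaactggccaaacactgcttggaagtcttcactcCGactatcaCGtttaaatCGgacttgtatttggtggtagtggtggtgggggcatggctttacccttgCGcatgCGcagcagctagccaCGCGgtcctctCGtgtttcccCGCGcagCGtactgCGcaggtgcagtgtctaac
near Gm1979 (chr5:26007126-26007325, plus strand, 26 CG): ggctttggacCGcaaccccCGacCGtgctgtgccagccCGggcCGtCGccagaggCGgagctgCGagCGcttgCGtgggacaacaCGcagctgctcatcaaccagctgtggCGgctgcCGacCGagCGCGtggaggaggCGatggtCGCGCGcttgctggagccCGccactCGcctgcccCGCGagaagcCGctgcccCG
near Edn1 (chr13:42183801-42184000, plus strand, 10 CG): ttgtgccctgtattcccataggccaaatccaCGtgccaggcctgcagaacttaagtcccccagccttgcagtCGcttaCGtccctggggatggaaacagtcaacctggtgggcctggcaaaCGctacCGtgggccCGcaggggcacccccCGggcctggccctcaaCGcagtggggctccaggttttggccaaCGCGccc

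CG dinucleotides were present in all 9 sequences, at 8 in Tia1, 25 in Klf4 and 26 near Gm1979. The counts of the members low in H3K27me3 (8 to 16) and of those high in both reChIPs (12 to 25) overlapped.

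Members were mostly promoters. Of the 11334 members, 8620 (76.1%, Wilson 95% interval 75.3 to 76.8, counting error only) lay within 1.5 kb of a RefSeq start site, serving 10515 genes, against 59.4% of all shared regions and 78.4% of those with both totals. A further 1676 lay inside genes away from start sites, and 1038 lay outside genes. The median width was 3150 bp, with an interquartile range of 2250 to 4650 bp and extremes of 300 and 47100 bp, and 447 members were wider than 10 kb. The widest spanned Atp5d, Cbarp, Cirbp, Fam174c and Midn (47100 bp), Apc2 and Rps15 with 3 neighbours (45600 bp), and Plec (38100 bp). The members held a median of 2.82 CG per 100 bp against 2.37 over all shared regions, and a GC fraction of 0.507 against 0.501.

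At the border of the rule, 15 members touched an H3K27me3 region end to end without a shared base, and 774 lay within 5 kb of one, while the median gap was 67.5 kb. Of these 15, the first 3 in genome order were Ikzf2 (a lymphoid zinc finger factor) with E14 total H3K27me3 of -1.05 and -1.21, a region near Neu4 with 0.32 and 0.16, and a region near Cdc14a with -0.17 and -0.00. Just outside the rule, the 6 regions with the least H3K27me3 overlap shared 150 bp with an H3K27me3 region, among them Gm9530 (-0.43 and -0.39) and Tut4 (-0.79 and -0.85). The values of the regions named just inside and just outside thus overlapped. On the H3K4me3 side, 3 members shared only 150 bp with an H3K4me3 region, namely Gstt1 (E14 total H3K4me3 of 0.62 and 0.51), Syp (-0.58 and -0.63) and a region near Ogt (-0.87 and 0.24).

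**Figure D1:**
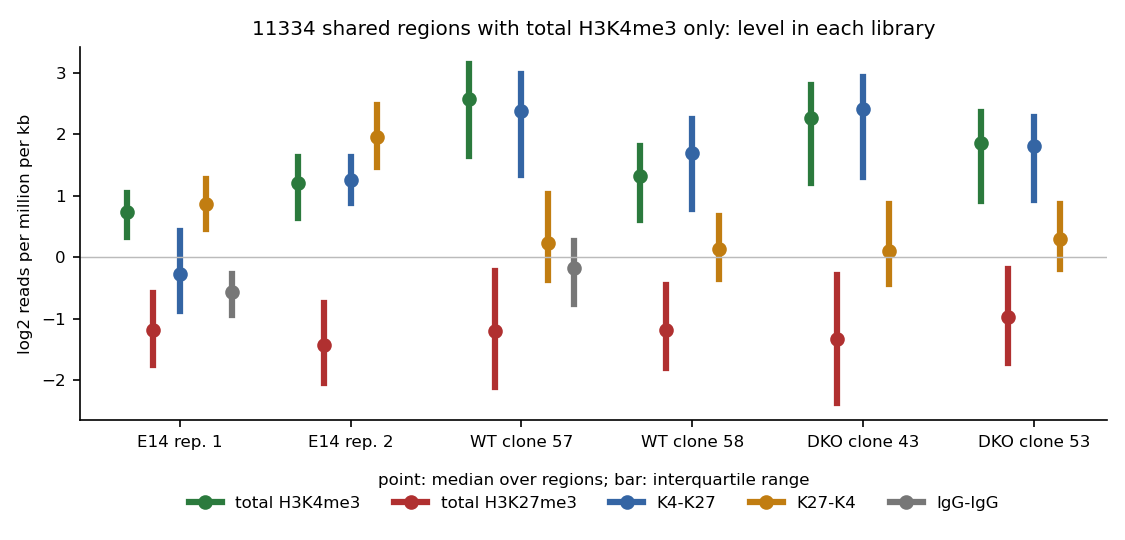
Level of the 11334 members in each of the 26 libraries, as log2 RPM per kb (vertical axis), with the median as a point and the interquartile range as a bar, grouped by E14 replicate or clone and coloured by ChIP. In the clones the medians of total H3K4me3 and K4-K27 lie above those of K27-K4, and in E14 cells K27-K4 lies above K4-K27.

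Over all members, the median level of total H3K4me3 was 0.74 and 1.20 in E14 replicates 1 and 2, and that of total H3K27me3 was -1.19 and -1.43. The median of K4-K27 was -0.28 in replicate 1 and 1.25 in replicate 2, and that of K27-K4 was 0.86 and 1.96, beside -0.56 in the IgG–IgG library. The replicates thus differed by more than 1 log2 unit in each reChIP. In the clones, listed from here on as WT 57, WT 58, DKO 43 and DKO 53, total H3K4me3 had medians of 2.57, 1.32, 2.26 and 1.85, and total H3K27me3 had medians of -1.21, -1.18, -1.33 and -0.97. Over all shared regions the corresponding medians were 1.46, 0.48, 0.87 and 0.68, and -0.18, -0.44, -0.41 and -0.29. The low H3K27me3 total that defined the members in E14 cells was found again in every clone.

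To ask whether the balance of the in-line totals held in libraries that the rule did not use, total H3K4me3 was compared with total H3K27me3 in the 8 clone libraries with limma. Total H3K4me3 was higher in 8850 members (78.1%), where 45.1% of all shared regions were called higher, and lower in 16 (0.141%), where 7.61% of all shared regions were called lower. The median difference was 3.13 (interquartile range 1.24 to 4.55) over members and 0.69 over all shared regions. With each library centred on its median over all shared regions, which moved the median of all regions to -0.51, the counts were 7009 higher and 1093 lower and the member median was 1.93. Over all shared regions centring gave 7282 higher and 8886 lower, so that the balance there turned while that of the members did not.

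The largest differences were at Zfp68, a zinc finger gene (6.82 ± 0.38 SE, adjusted p = 2.88e-15), at Etaa1 (6.67 ± 0.38, adjusted p = 1.42e-15) and at Tia1 (6.66 ± 0.40, adjusted p = 1.62e-15). Total H3K27me3 held only 1 to 9 reads per library at these 3 members, so their sizes and order are not exact. At Tia1, total H3K4me3 was 4.17, 2.47, 3.70 and 3.26, and total H3K27me3 was -2.79, -4.55, -3.19 and -2.50. Every H3K4me3 value there stood above every H3K27me3 value. In the opposite direction, total H3K27me3 exceeded total H3K4me3 at Spag6 (difference -1.34 ± 0.33, adjusted p = 0.000378), which was not called in the WT clones alone (-1.30). Spag6 held total H3K27me3 of 1.83, 1.14, 1.79 and 1.09 and total H3K4me3 of 0.47, -0.09, 0.12 and 0.00, so that the groups did not overlap. A region near Gm7271 (-1.87 ± 0.67, adjusted p = 0.0143) and Lcp1, an actin-bundling protein of blood cells (-1.76 ± 0.67, adjusted p = 0.02), were also called lower. Both calls were lost in the WT clones alone (-1.80 and -1.36) and without WT clone 57 (-1.32 and -1.66), and that of Lcp1 also without DKO clone 43 (-1.25).

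Region sets called for the clones gave a second view. An H3K4me3 region of the WT clones overlapped 10349 members (91.3%) and one of the DKO clones 9520 (84.0%), against 73.8% and 61.9% of all shared regions. An H3K27me3 region of the WT clones overlapped 1215 members (10.7%) and one of the DKO clones 1593 (14.1%), against 26.7% and 27.8% of all shared regions, and 68.6% and 64.8% of those with both totals. The K4-K27 set of the WT clones covered 9592 members (84.6%), 69.7% of all shared regions and 92.4% of those with both totals. The K27-K4 set covered 4465 members (39.4%), against 51.5% and 93.5%. In the DKO clones the K4-K27 set covered 9381 (82.8%, against 63.8% and 82.2%) and the K27-K4 set 4195 (37.0%, against 44.4% and 84.1%). The study's methods name EPIC2 as the peak caller, run on each replicate against IgG–IgG, and the processing notes list MACS2. The edges of these sets lie on steps of 150 bp, another bin than the methods give, so which call made the deposited sets is not settled here.

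Set against the IgG–IgG library of WT clone 57, the median member was enriched in K4-K27 by 2.53, 1.85, 2.48 and 1.90 log2 units and in K27-K4 by 0.59, 0.41, 0.49 and 0.60. K4-K27 exceeded IgG–IgG at 95.8, 93.1, 91.7 and 92.0% of members, and K27-K4 at 66.1, 63.9, 63.7 and 71.1%. Over all shared regions these shares were 87.9, 88.0, 81.8 and 82.8% for K4-K27, and 77.9, 75.7, 72.9 and 76.8% for K27-K4. In the shared regions with both totals, K27-K4 exceeded IgG–IgG at 98.8, 98.2, 95.5 and 95.7%, and K4-K27 at 97.3, 97.6, 91.2 and 91.1%. Enrichment by at least 2 log2 units was found for K4-K27 at 68.6, 43.9, 67.3 and 45.3% of members and for K27-K4 at 20.4, 13.2, 17 and 15%. Over all shared regions these shares ran from 34.8 to 55.2% for K4-K27 and from 22.4 to 33.8% for K27-K4. In every clone the share of members was the higher one for K4-K27 and the lower one for K27-K4. Total H3K27me3 exceeded IgG–IgG at 32.5, 28.6, 31.4 and 35.2% of members, against 58.3, 52.8, 54.3 and 57.5% of all shared regions. This reference is 1 library and held 0 reads at 247 members, so ratios to it carry no replicate error. With the E14 IgG–IgG library instead, the medians were 2.93, 2.23, 2.91 and 2.32 for K4-K27 and 0.90, 0.78, 0.79 and 0.94 for K27-K4.

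The members with the highest WT reChIP values over IgG–IgG were Pgap4 (a glycosyltransferase of GPI anchors), Abcb1b with Gm5106 (a drug efflux pump), Cntn5 (a neural adhesion protein), Snx13 (a sorting nexin) and Serp2. IgG–IgG held 0 reads at Abcb1b, Cntn5 and Serp2, and with a floor of 3 reads the WT reChIPs were at least 56.2-fold, 53.1-fold and 53.1-fold higher. At Pgap4 and Snx13 it held 2 reads and 1 read, so these ranks rest largely on an empty reference. At Pgap4, K4-K27 was 3.52, 2.71, 2.98 and 2.12 and K27-K4 was 3.04, 2.14, 2.61 and 2.40. The lowest member, near Ccnc (750 bp wide), had K4-K27 of 1.53 and -1.01 and K27-K4 of -3.72 and -0.68 in WT 57 and WT 58, beside an IgG–IgG value of 2.10. K27-K4 there held 0 reads in WT 57 and 8 in WT 58, so its rank rests on an empty library.

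**Figure D2:**
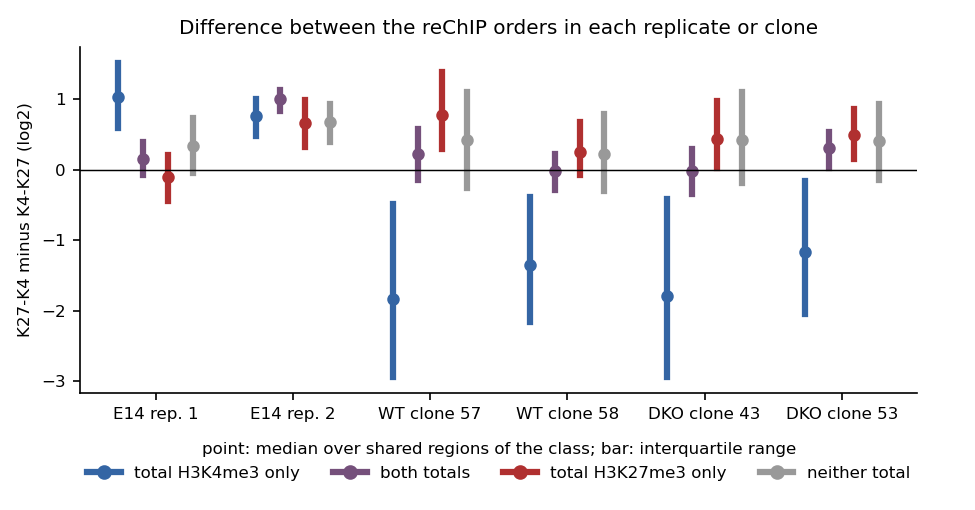
Difference between K27-K4 and K4-K27 (log2, vertical axis) in each E14 replicate and clone, for the members and the other classes of shared regions, with medians as points and interquartile ranges as bars. For the members the medians are 1.04 and 0.77 in E14 cells and lie between -1.83 and -1.17 in the clones.

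The order of the antibodies separated the members in opposite directions in E14 cells and in the clones. In E14 replicates 1 and 2, K27-K4 exceeded K4-K27 by a median of 1.04 and 0.77, and was higher at 96.3% and 95.5% of members. Over all shared regions it was higher at 80.5% and 94.6%, so the share in replicate 2 was near that of all regions. In the clones the median difference was -1.83, -1.35, -1.79 and -1.17, and K27-K4 was higher at only 15.1, 15.4, 16.0 and 20.7%, against 42.3, 36.8, 39.8 and 46.6% of all shared regions. Over all shared regions the medians were 0.58 and 0.78 in E14 cells and -0.29, -0.32, -0.30 and -0.10 in the clones. K27-K4 was the higher order in both E14 replicates and the lower order in all 4 clones at 7519 members (66.3%), against 38.0% of all shared regions. In the clones, 7981 members (70.4%) were lower in all 4 and 563 (4.97%) were higher in all 4, against 40.5% and 18.9% of all shared regions. The difference between E14 cells and clones was not tested. The order of each library is known from its name, and an exchange of names within a line would turn the sign of its medians. Whether names were exchanged was not tested. In the clones each order ran with the total of its first antibody across members, K4-K27 with total H3K4me3 at correlations of 0.78 to 0.9 and K27-K4 with total H3K27me3 at 0.607 to 0.685, while in E14 replicate 1 K4-K27 ran with total H3K27me3 (0.612) and not with total H3K4me3 (-0.119). In E14 replicate 2 these were 0.303 and 0.209. E14 K27-K4 correlated with total H3K27me3 at 0.403 and 0.399 and with total H3K4me3 at 0.135 and 0.0602.

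In the 8 reChIP libraries of the clones, limma called K27-K4 lower than K4-K27 at 6788 members (59.9%), where 32.4% of all shared regions were called lower, and higher at 51 (0.45%), where 3.43% were called higher. The member median was -1.53 (interquartile range -2.54 to -0.31), beside -0.11 over all shared regions. After each library was centred on its median, 4545 members were lower and 1753 higher. Over all shared regions centring turned the direction, from 7085 lower and 750 higher to 4624 lower and 9380 higher.

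The largest differences were at 4931414P19Rik (-4.50 ± 0.63, adjusted p = 3.54e-07), Etaa1 (-4.45 ± 0.37, adjusted p = 1.44e-09) and Zbtb6, a zinc finger and BTB domain gene (-4.44 ± 0.38, adjusted p = 2.73e-09). At Etaa1, K4-K27 was 4.08, 3.30, 3.79 and 2.63 and K27-K4 was -1.76, -1.35, -0.96 and 0.07. Its total H3K4me3 was 3.70, 2.11, 3.23 and 2.45, and its total H3K27me3 was -4.79, -2.96, -3.78 and -3.67, which is 1 to 4 reads per library. All 4 clones showed the same order there, with K4-K27 near the level of total H3K4me3. K27-K4 was the higher order near Col22a1 (2.56 ± 0.63, adjusted p = 0.000937), near Afdn (adjusted p = 0.00338) and near Fez2 (adjusted p = 0.0465). Near Col22a1, K27-K4 was 1.32, 0.84, -0.49 and -0.09 and K4-K27 was -0.60, -0.27, -3.25 and -4.55, the last 2 values resting on 2 reads and 1 read. Near Afdn, K27-K4 was 0.81, 0.91, -0.51 and -0.57, and K4-K27 was -0.35 and -0.15 in WT with 0 reads in both DKO clones, so no exact size is given. The call near Afdn was lost in the WT clones alone (1.11). Near Fez2, K27-K4 was 0.47, -0.43, -1.04 and -0.36, and K4-K27 held 0 reads in WT 58 and DKO 43. Its call was lost in the WT clones alone (2.21) and without WT clone 58 (1.63), DKO clone 43 (1.84) or DKO clone 53 (2.50).

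Each reChIP was then set against the in-line total of its first antibody in the clones. K4-K27 differed little from total H3K4me3, with a median difference of -0.03 (interquartile range -0.26 to 0.21) over members and 0.07 over all shared regions. It was called higher at 407 members (3.59%), where 12.3% of all shared regions were called higher, and lower at 209 (1.84%), where 1.45% were. Centred libraries gave 122 higher and 998 lower, and without DKO clone 43 there were 46 higher and 72 lower, where all shared regions gave 1176 higher and 1502 lower, and 822 higher and 101 lower. Without DKO clone 53, 189 members were higher and 142 lower (1822 and 186 of all shared regions). The WT clones alone gave 0 higher and 7 lower (5 and 8 of all shared regions). With voom weights 433 were higher and 61 lower (2718 and 78 of all shared regions). K27-K4 exceeded total H3K27me3 at 8066 members (71.2%), where 48.4% of all shared regions were called higher, and was lower at 4 (0.0353%), where 0.156% were. The median was 1.55 over members and 0.97 over all shared regions, and 0.88 and 0.30 with centred libraries. With centred libraries 4689 members were higher and 74 lower (5280 and 610 of all shared regions), and without the lowest quartile of regions 4150 were higher and 0 lower (6581 and 13).

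Across the 11334 members, the level of K4-K27 followed that of total H3K4me3 within each clone, with Pearson correlations of 0.848, 0.78, 0.896 and 0.9. K27-K4 followed total H3K27me3 with 0.685, 0.607, 0.675 and 0.612, and its correlation with total H3K4me3 ran from -0.0526 in WT clone 57 to 0.271 in DKO clone 53. K4-K27 correlated with total H3K27me3 at -0.283 to -0.149 in the clones, but at 0.612 and 0.303 in E14 replicates 1 and 2. In E14 replicates 1 and 2, K4-K27 correlated with total H3K4me3 at -0.119 and 0.209 and with K27-K4 at 0.727 and 0.869, where the clones gave 0.246 to 0.428 between the reChIP orders. These are descriptions across regions of the same cells, which share depth and base composition, and regions are not replicates. Between replicates, K4-K27 correlated at 0.698 in E14 cells, 0.857 in WT and 0.902 in DKO clones, and K27-K4 at 0.853, 0.794 and 0.854.

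**Figure D3:**
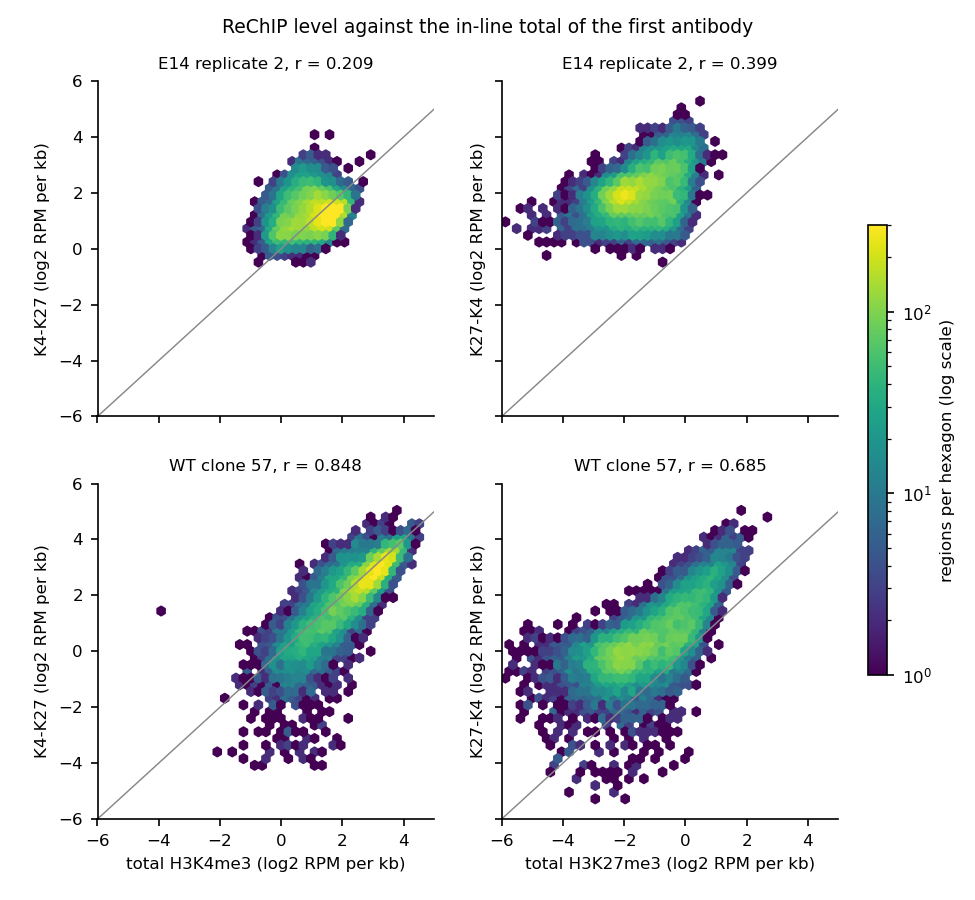
ReChIP level (vertical axes, log2 RPM per kb) against the in-line total of the first antibody (horizontal axes, same unit) for the 11334 members in E14 replicate 2 and WT clone 57, with the colour giving the number of regions per hexagon and the grey line equality. In WT clone 57, K4-K27 lies along the line (r = 0.848), while in E14 replicate 2 it spreads widely (r = 0.209).

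The members fell into subsets by the WT region sets. Both reChIP sets of the WT clones covered 4187 members (36.9%), K4-K27 alone covered 5405 (47.7%), K27-K4 alone covered 278 (2.45%) and neither covered 1464 (12.9%). Members with K4-K27 alone were at promoters in 88.4% and had a median total H3K4me3 of 3.02 in WT 57 and 1.69 in WT 58, with K27-K4 at -0.15 and -0.12. Members in both sets had a median width of 4200 bp, with K4-K27 of 2.41 and K27-K4 of 1.28 in WT 57, and total H3K27me3 of -0.21. Members in neither were narrower (1950 bp) and at promoters in 20.9%.

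A smaller group of 1215 members carried an H3K27me3 region in the WT clones although none was present in the E14 set. Its medians in WT 57 and WT 58 were 0.51 and 0.10 for total H3K27me3, 1.86 and 1.26 for K27-K4, 2.06 and 1.55 for K4-K27, and 1.59 and 0.59 for total H3K4me3. The other 10119 members held -1.41 and -1.32, 0.12 and 0.04, 2.41 and 1.71, and 2.69 and 1.42. Since the WT H3K27me3 region set picked this group, its higher H3K27me3 is a description. The group was wider (median 5400 against 3000 bp) and at promoters in 74.6%.

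Among the developmental genes of this group, Fgf12 (chr16:28563901-28567650) had total H3K4me3 of 1.86, 0.77, 1.16 and 1.05 and total H3K27me3 of 1.20, 0.74, 1.46 and 1.05. Its K4-K27 was 3.88, 3.24, 3.26 and 2.72, and its K27-K4 was 3.82, 2.92, 3.11 and 2.78. Both reChIP orders at Fgf12 stood above both totals in every clone, by 2.07 ± 0.41 (K4-K27 against total H3K4me3, adjusted p = 3.31e-05) and 2.04 ± 0.30 (K27-K4 against total H3K27me3, adjusted p = 1.91e-06), the former not called in the WT clones alone (2.25). Fgf12 was picked for the highest WT reChIP level of its gene list, so these differences may be overstated. The paper lists Lmo1 and Dlx3 among its bivalent loci. At Lmo1, a LIM-only transcription cofactor, K4-K27 was 2.32, 1.94, 0.77 and 0.52 and K27-K4 was 2.66, 1.88, 1.21 and 1.11, with total H3K27me3 of 1.36, 0.82, 0.73 and 0.83. At Dlx3, a homeobox gene, K27-K4 was 2.49, 1.85, 1.85 and 1.64 and total H3K27me3 was 1.36, 0.69, 1.10 and 1.06. All 4 libraries of K27-K4 at Dlx3 lay above all 4 of total H3K27me3, with a difference of 0.90 ± 0.26 (adjusted p = 0.00336) that stayed under the threshold of 1 log2 unit for a call.

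**Figure D4:**
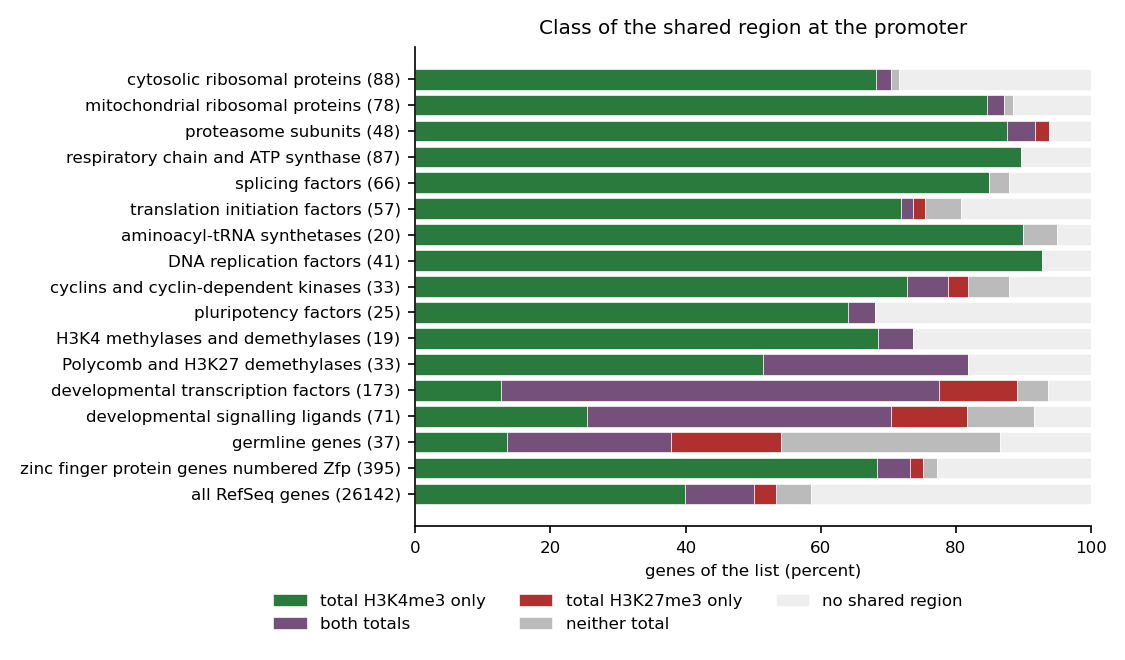
Share of the genes of each list (horizontal axis, percent of genes, with the number of genes in brackets) whose promoter lay in a shared region of each class or in none. Housekeeping lists are mostly in the class with total H3K4me3 only (89.7% for the respiratory chain), and developmental transcription factors mostly in the class with both totals (64.7%).

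Lists of genes showed which promoters the members held. Housekeeping lists were mainly in this class, with 78 of 87 genes of the respiratory chain and ATP synthase (89.7%), 38 of 41 of DNA replication (92.7%), 18 of 20 aminoacyl-tRNA synthetases (90.0%), 42 of 48 proteasome subunits (87.5%), 56 of 66 splicing factors (84.8%) and 66 of 78 mitochondrial ribosomal proteins (84.6%). Of cytosolic ribosomal proteins 60 of 88 (68.2%) belonged, and of zinc finger genes numbered Zfp 270 of 395 (68.4%), beside 39.9% of all 26142 RefSeq genes with a start site. Developmental transcription factors were at 22 of 173 (12.7%) and germline genes at 5 of 37 (13.5%), and 64.7% of the former lay in regions with both totals. Of the Polycomb components and H3K27 demethylases, 17 of 33 (51.5%) were members, among them Kdm2b (the CpG-binding subunit of a PRC1 complex) and Cbx7. Developmental ligands were at 18 of 71 (25.4%). These shares follow from E14 region sets and are a description.

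In the clones, K27-K4 was called lower than K4-K27 at 78 of 78 member regions of the respiratory chain (median -2.62), 39 of 39 of DNA replication (-2.67), 42 of 43 of the proteasome (-2.79), 64 of 67 of mitochondrial ribosomal proteins (-2.57) and 57 of 59 of cytosolic ribosomal proteins (-2.44). None of these regions was called higher by limma, by voom weights or at an unadjusted p under 0.05. At all members that are promoters the count was 6169 of 8620 lower and 9 higher, with a median of -1.98. Centring each library moved the median of all shared regions from -0.11 to 0.89, and the 5 lists stayed negative with medians of -1.62, -1.67, -1.79, -1.57 and -1.43. At Psma5, K4-K27 was 3.01, 2.28, 2.91 and 2.50 and K27-K4 was 0.01, -0.17, -0.47 and -0.36, with total H3K27me3 between -5.36 and -1.67. The groups at Psma5 did not overlap (difference -2.92 ± 0.29, adjusted p = 3.44e-10). At Gapdh, a glycolytic enzyme (chr6:125158351-125172600), K4-K27 was 1.71, 1.37, 2.00 and 1.56 and K27-K4 was -1.13, -0.69, -0.73 and -0.55 (difference -2.43 ± 0.29, adjusted p = 1.32e-08). The paper used Gapdh as a control locus with H3K4me3 only. The X-linked Cox7b, a subunit of cytochrome c oxidase, gave 3.21, 2.04, 2.90 and 2.24 for K4-K27 and 0.52, 0.23, -0.32 and -1.10 for K27-K4 (difference -2.76 ± 0.32, adjusted p = 7.69e-09).

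The developmental lists had smaller median differences between the orders. K27-K4 was called lower at 14 of 22 member regions of developmental transcription factors (median -1.29), at 5 of 20 of developmental ligands (-0.20) and at 1 of 5 of germline genes (-0.15). None was called higher, also not with voom weights, and 1 developmental transcription factor was higher at an unadjusted p under 0.05. With centred libraries the medians were -0.29, 0.80 and 0.85, so that the direction of the ligands and germline genes turned, and 2, 9 and 2 regions were called higher. The WT K27-K4 set covered 13 of 22 (59.1%), 15 of 20 (75%) and 3 of 5 (60%) of these, against 41.0% of all promoter members and 7 of 78 (8.97%) of the respiratory chain. Among the ligands, 8 of 20 regions were called higher in K4-K27 than in total H3K4me3 and 0 lower, with a median of 0.69, where voom weights gave 8 and 0 and an unadjusted p under 0.05 gave 10 and 0. With centred libraries 6 were higher and 1 lower (median 0.21). Of all promoter members 369 of 8620 were called higher in this comparison, and of all shared regions 12.3%. All 8 calls were lost in the WT clones alone, where 0 members were called higher. The ligand Nodal, a TGF-beta family signal of early patterning, lay at the other end, with K27-K4 under K4-K27 by 2.47 ± 0.29 (adjusted p = 7.07e-09). Its K4-K27 was 3.04, 2.09, 3.07 and 2.70 and its K27-K4 was 0.37, 0.25, 0.11 and 0.29.

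Of 25 pluripotency factors, 16 (64.0%) had a member at the promoter. K27-K4 was called lower at 10 of the 16 regions (median -2.29, and -1.29 with centred libraries), and 9 of 16 (56.2%) lay in the WT K27-K4 set. Pou5f1, which encodes OCT4, had K4-K27 of 3.03, 2.22, 3.49 and 3.06 and K27-K4 of -0.34, -0.02, -0.30 and 0.07 (difference -3.10 ± 0.29, adjusted p = 2.03e-10). Klf4 had K4-K27 of 3.54, 3.06, 3.30 and 2.68 and K27-K4 of 3.24, 2.64, 1.27 and 1.48. Its total H3K4me3 was 3.29, 1.96, 3.17 and 2.84 and its total H3K27me3 was 0.35, -0.01, -1.28 and -0.75. Klf4 thus carried high K27-K4 in the WT clones with total H3K27me3 near 0, and both values were lower in each DKO clone than in each WT clone. The paper lists Klf4 among its control loci with H3K4me3 only.

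The levels of the members varied with their CG content. From the lowest to the highest quartile of CG per 100 bp, the share at promoters was 41.8, 75.9, 90.3 and 96.2%, and in WT clone 57 total H3K4me3 had medians of 1.30, 2.26, 2.83 and 3.26 and total H3K27me3 had medians of -0.53, -0.88, -1.55 and -1.88. K4-K27 followed total H3K4me3 (0.83, 2.07, 2.67 and 3.19), and K27-K4 had medians of 0.10, 0.30, 0.23 and 0.34. IgG–IgG itself moved from -0.47 over -0.23 and -0.08 to 0.04. In E14 replicates 1 and 2 the median of K27-K4 went from 0.56 over 0.84 and 0.93 to 1.07, and from 1.42 over 1.91 and 2.07 to 2.23, beside an IgG–IgG median of -0.73, -0.52, -0.51 and -0.52. The part of base composition in these medians was not tested. In RefSeq promoter windows of GRCm38.p6, from 250 bases before to 50 after the start, 10635 windows of 8973 genes lay within 1.5 kb of a member by position, and 7060 of the 8620 promoter members (81.9%) had such a window. They held a median of 21 CG, against 7 over all 32817 windows and 19 in the windows of regions with both totals. The letters CCGGAAG, searched on both strands, occurred in 18.7% of member windows and 8.86% of all windows, and within members in 11.8% of windows in the WT K27-K4 set and 23.3% of those outside it. GGGCGG was found in 64.4% against 35.6%, TATAAA in 6.06% against 13.6%, and CCAAT in 38.3% against 37.4%. In windows of regions with both totals, GGGCGG was found in 59.4%, TATAAA in 7.47%, CCAAT in 33.3% and CCGGAAG in 5.53%. TGACG was found in 31.7% against 20.8%, CACGTG in 9.82% against 7.15%, GCATGCG in 6.75% against 3.57% and GATGGCG in 6.78% against 3.49%. Matches of different motifs may share bases, and a match is a description of letters, not of binding.

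The effect of losing DPPA2 and DPPA4 was compared between the DKO and WT clones for each ChIP with limma, with 2 clones on each side. K4-K27 was lower at 290 members (2.56%), where 4.35% of all shared regions were called lower, and higher at 72 (0.635%), where 0.503% were. K27-K4 was lower at 418 (3.69%, background 8.29%) and higher at 138 (1.22%, background 1.05%). Total H3K4me3 was lower at 430 (3.79%, background 5.55%) and higher at 1 (0.00882%, background 0.0412%), and total H3K27me3 was lower at 88 (0.776%, background 2.33%) and higher at 81 (0.715%, background 0.494%). The median difference over members was -0.01, 0.08, 0.06 and 0.05 for K4-K27, K27-K4, total H3K4me3 and total H3K27me3, beside -0.12, -0.09, -0.06 and 0.02 over all shared regions. After centring, K4-K27 was lower at 170 and higher at 127 members, K27-K4 lower at 364 and higher at 292, total H3K4me3 lower at 455 and higher at 58, and total H3K27me3 lower at 105 and higher at 143. Over all shared regions the centred counts were 647 lower and 145 higher, 1581 lower and 476 higher, 1083 lower and 119 higher, and 564 lower and 214 higher.

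These counts depended on single clones and on the variance model. With voom weights K4-K27 was higher at 1 and lower at 118 members (1 and 515 of all shared regions), K27-K4 higher at 75 and lower at 359 (100 and 1543), total H3K4me3 lower at 333 (826), and total H3K27me3 higher at 19 and lower at 70 (23 and 359). Without WT clone 57, 85 members were higher and 40 lower in K4-K27, 416 higher and 244 lower in K27-K4, 208 higher and 265 lower in total H3K4me3, and 181 higher and 27 lower in total H3K27me3. Over all shared regions these counts were 119 higher and 224 lower, 648 higher and 1137 lower, 331 higher and 584 lower, and 342 higher and 199 lower. The other omissions left fewer higher calls in K4-K27, at 29 without WT clone 58, 7 without DKO clone 43 and 19 without DKO clone 53, beside 176, 172 and 216 lower calls. K27-K4 was then higher at 233, 1 and 10 members and lower at 644, 163 and 211, total H3K4me3 was lower at 1225, 51 and 92, and total H3K27me3 was higher at 55, 2 and 30 and lower at 111, 4 and 93. Among all shared regions K4-K27 was higher at 84, 8 and 31 and lower at 561, 565 and 687, K27-K4 higher at 397, 3 and 23 and lower at 2786, 677 and 862, total H3K4me3 lower at 3521, 154 and 242, and total H3K27me3 higher at 94, 2 and 39 and lower at 744, 36 and 301. In each of these fits the lone clone of a genotype was assumed to vary as the pair of the other genotype did.

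Both reChIP orders were lower in the DKO clones at 193 members (1.7%), where 3.44% of all shared regions were. Total H3K4me3 was also called lower at 141 of them and total H3K27me3 at 51. Their median level in WT 57, WT 58, DKO 43 and DKO 53 for K4-K27 was 1.73, 1.18, -1.08 and -0.96, and for K27-K4 it was 1.68, 1.15, -0.66 and -0.53. Total H3K4me3 went from 1.51 and 0.44 in WT to -1.03 and -0.86 in DKO clones, and total H3K27me3 from 0.38 and -0.07 to -0.76 and -0.51. At promoters lay 97 of the 193 (50.3%, against 76.1% of all members), and an H3K27me3 region of the WT clones covered 72 (37.3%, against 10.7%). An H3K4me3 region of the DKO clones covered 14, against 84.0% of all members. Since the fall in the DKO clones picked these members, their low levels and coverage there are a description. The number of members lower in both reChIPs was 106 with voom weights, 122 with centred libraries and 127 without the lowest quartile of regions. Over all shared regions these counts were 492, 506 and 571. With each clone left out, fewer than 193 members were lower in both.

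**Figure D5:**
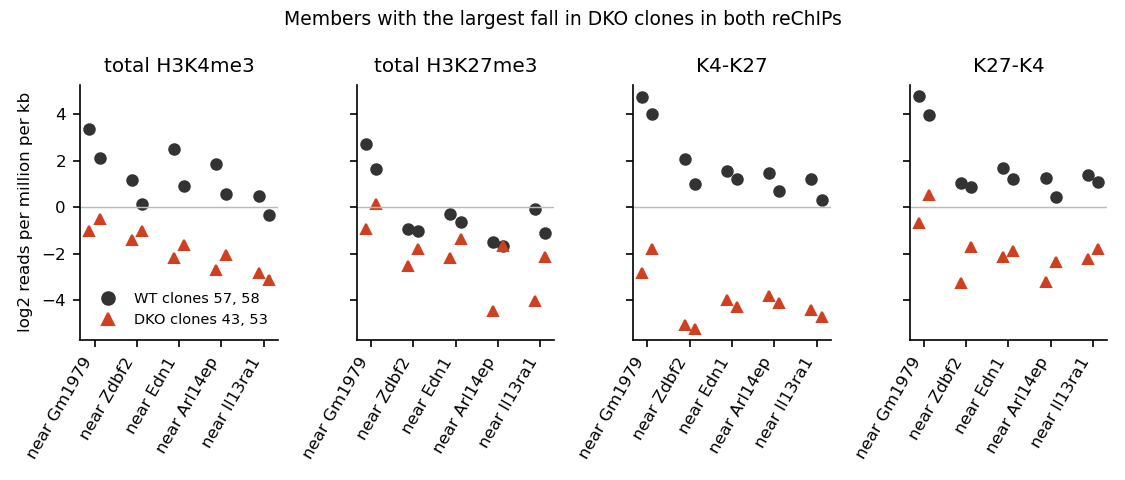
Levels (log2 RPM per kb, vertical axis) of the 5 members with the largest fall in both reChIPs, 1 panel per ChIP, with WT clones 57 and 58 as circles and DKO clones 43 and 53 as triangles. In K4-K27 and K27-K4 every WT point lies above every DKO point at each of the 5 members.

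By the mean of both reChIPs, the largest fall was in a region near Gm1979 (chr5:26006551-26007900, 1824 bp from its start site). K4-K27 there was 4.76 and 4.00 in WT and -2.83 and -1.81 in DKO clones, and K27-K4 was 4.78 and 3.98 in WT and -0.66 and 0.51 in DKO clones. Total H3K4me3 was 3.37, 2.11, -1.03 and -0.51, and total H3K27me3 was 2.74, 1.65, -0.93 and 0.13. WT and DKO clones did not overlap in any of the 4 ChIPs. In reads, K4-K27 held 337 and 231 in WT and 2 and 5 in DKO clones. At library depth this is a ratio of 95.6 (exact 95% interval 46.1 to 239, counting error only). With so few DKO reads, the rank of this member in K4-K27 alone is not settled. K4-K27 fell by 6.70 ± 0.49 (adjusted p = 9.35e-39) and K27-K4 fell by 4.45 ± 0.47 (adjusted p = 3.27e-18), and both calls were kept with each clone left out. Total H3K4me3 fell by 3.51 ± 0.63 (adjusted p = 3.27e-06) and was not called without DKO clone 43 (-3.25) or 53 (-3.77), and total H3K27me3 fell by 2.59 ± 0.37 (adjusted p = 5.46e-09) and was not called without DKO clone 43 (-2.06). The E14 values at this member were 2.94 and 3.98 for K4-K27 and 3.66 and 5.25 for K27-K4.

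The other 4 lay far from start sites, near Zdbf2 (34232 bp), Edn1 (116826 bp), Arl14ep (49341 bp) and Il13ra1 (85858 bp). Near Edn1 (chr13:42183151-42184650), K4-K27 held 41 and 37 reads in WT and 1 and 1 in DKO clones, and K27-K4 held 77 and 60 against 8 and 7. At library depth this is a ratio of 46.0 (exact 95% interval 12.3 to 386, counting error only) for K4-K27 and 11.2 (6.57 to 20.6) for K27-K4. K27-K4 there fell by 3.46 ± 0.46 (adjusted p = 5.12e-12) and kept its call with each clone left out, while the call of K4-K27 (adjusted p = 0.00054) was lost without WT clone 57 (-5.33) or 58 (-5.70) and with voom weights (-4.95). Near Zdbf2 (chr1:63307501-63310350), K4-K27 held 111 and 62 reads in WT and 0 and 1 in DKO clones, a ratio of 204 (36.1 to 8100), and K27-K4 fell by 3.42 ± 0.62 (adjusted p = 1.89e-06). The K4-K27 call there was lost without WT clone 57 (-6.16) or 58 (-7.21). Near Arl14ep and Il13ra1 no K4-K27 read was found in either DKO clone. Against a floor of 3 reads, K4-K27 was at least 9.99-fold lower near Arl14ep (chr2:106919851-106921050) and at least 12-fold lower near Il13ra1 (chrX:36024451-36026250). Both calls in K4-K27 were lost with voom weights and without WT clone 57 or 58, and that near Il13ra1 also with centred libraries. The K27-K4 call near Arl14ep was lost without WT clone 57.

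Of the 5 member regions of germline genes, K4-K27, K27-K4 and total H3K4me3 were each called lower at 2 in the DKO clones, Syce1 and Mael (a protein of the piRNA pathway). Among all promoter members the same calls were made at 121, 184 and 99 of 8620. At Syce1, K27-K4 was 2.12 and 1.58 in WT and -0.85 and -1.44 in DKO clones, and K4-K27 was 1.69, 0.92, -0.66 and -1.89. Total H3K4me3 (1.55, 0.26, -1.58 and -0.55) and total H3K27me3 (1.20, 0.31, -1.0 and -0.48) were lower in both DKO clones too. The total H3K4me3 calls at Syce1 and Mael were both lost without DKO clone 43 (-1.46 and -1.72) or 53 (-2.48 and -2.26). K27-K4 fell by 2.99 ± 0.35 (adjusted p = 3.7e-15) and kept its call with each clone left out, whereas K4-K27 fell by 2.58 ± 0.58 (adjusted p = 0.000546) and was not called without WT clone 57 (-2.20) or DKO clone 53 (-1.97). At Mael (chr1:166236751-166239300), chosen after its values were seen, K4-K27 fell by 2.61 ± 0.56 (adjusted p = 0.000249, lost without WT clone 58 at -2.40), and K27-K4 fell by 1.61 ± 0.34 (adjusted p = 6.51e-05, lost without DKO clone 43 at -1.75 or 53 at -1.48).

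At Klf4, K27-K4 fell by 1.57 ± 0.47 (adjusted p = 0.0136) and total H3K27me3 fell by 1.18 ± 0.35 (adjusted p = 0.0291), while K4-K27 (-0.31 ± 0.66) and total H3K4me3 (0.38 ± 0.90) were not called. Both Klf4 calls were lost without DKO clone 43 (-1.46 and -0.92) or 53 (-1.68 and -1.45), and that of total H3K27me3 also without WT clone 57 (-1.01). Tbx3, a T-box repressor named here after its values were seen (chr5:119655001-119676900), moved in the same ChIPs, with K27-K4 of 2.05, 1.42, 0.16 and 0.32 and total H3K27me3 of 1.20, 0.48, -1.09 and -0.75. The adjusted p was 0.000558 for K27-K4 (lost without DKO clone 43 at -1.42 or 53 at -1.58) and 1.74e-05 for total H3K27me3 (lost without DKO clone 43 at -1.59). Total H3K4me3 at Tbx3 was 1.92, 0.92, 2.39 and 1.93 and was not called. Of the 16 pluripotency regions these were the only 2 called in K27-K4 and the only 2 called in total H3K27me3, where 184 and 49 of all 8620 promoter members were called lower.

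In K4-K27, 1 of 56 member regions of splicing factors and 4 of 271 of Zfp genes were called lower and 0 higher, beside 121 lower and 17 higher of 8620 promoter members. In K27-K4, 0 of the splicing factors were called, and of the Zfp regions 3 were lower and 2 higher, at Zfp607a (1.32 ± 0.46) and Zfp873 (1.61 ± 0.55), beside 184 lower and 81 higher of 8620. The calls at Zfp607a and Zfp873 were lost with voom weights and without WT clone 58 or either DKO clone. At an unadjusted p under 0.05, K4-K27 was higher at 0 splicing and 6 Zfp regions, and K27-K4 was lower at 2 and higher at 0 splicing regions, and voom weights called none of these. The balance of the Zfp regions turned with the scaling, as centred libraries gave 5 higher and 3 lower in K4-K27 and 7 higher and 3 lower in K27-K4, and at an unadjusted p under 0.05 K27-K4 was higher at 23 and lower at 10. Prpf39 (a U1 snRNP-associated factor) and Repin1 with Zfp775, like the 2 that were higher chosen after their values were seen, had the largest called falls of their lists in K4-K27. K4-K27 at Prpf39 (chr12:65035951-65037750) fell by 3.13 ± 0.49 (adjusted p = 5e-08), and at Repin1 (chr6:48592951-48603750) it fell by 2.77 ± 0.50 (adjusted p = 3.66e-06), while K27-K4 at Repin1 fell by 2.08 ± 0.34 (adjusted p = 8.52e-08). These 3 calls were kept with each clone left out. Of the 59 member regions of cytosolic ribosomal proteins, limma called 0 in either direction in any of the 4 ChIPs, as did voom weights, and 2 were lower in K27-K4 at an unadjusted p under 0.05.

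Both reChIPs were higher in the DKO clones at 7 members, where 0.0412% of all shared regions were. The 5 with the largest rise lay near Gm13710, 4930505K14Rik, Pdp2, Psmd7 and Gm10190 and were 600 to 1200 bp wide. Near Psmd7 (chr8:107610601-107611650), K4-K27 was -0.96 and -3.49 in WT and 0.99 and 1.59 in DKO clones (3.51 ± 0.74, adjusted p = 0.000183), resting on 5 and 1 reads in the WT clones. Near Gm10190 K4-K27 was -0.30, -1.10, 1.73 and 2.17 (2.65 ± 0.50, adjusted p = 1.32e-05) and K27-K4 was -0.25, -0.35, 1.08 and 0.85 (1.26 ± 0.35, adjusted p = 0.00565). At each of the 5 members at least 1 of the calls was lost with a clone left out, and with weights from the recovered reads none of the 5 kept its call in both reChIPs.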

How the data were processed

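Processed tables of 26 libraries were used, 9 from E14 cells and 17 from the WT and DKO clones. Reads were trimmed with Trim Galore 0.6.6, aligned with BWA 0.7.13 and handled with Picard 2.6.0 and SAMtools 1.9, per the submitters' processing notes. The authors quantified alignments of mapping quality over 20, extended by 200 bp with duplicates kept, in SeqMonk on mm10 (GRCm38), and deposited log2 RPM per kb for 12 tables of regions, from which 240 columns were read. Another 32 columns belong to no sample of the series and were not used. In each library 100% of values came out as whole reads within 0.01 reads, with 0 reads entered as 0.9, which gave the reads behind each value.

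The members and gene lists were chosen with earlier results of these data known. Overlap meant at least 1 bp, and a promoter was the stretch within 1.5 kb of any of 31609 start sites in RefSeq. Named members were those at loci the paper names, the 5 highest and 5 lowest WT reChIP levels over IgG–IgG, the 5 largest falls and rises in both reChIPs, the 3 largest calls each way in comparisons of ChIPs, the highest and lowest of each gene list, the widest 3, and those at the border of the rule. Some of them are given only as counts. A further member that this rule chose is left out of the text.

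The design had foreseen limma because the values are log2 densities. Comparisons used limma 3.58.1 in R 4.3.3 (lmFit, eBayes with trend and robust estimation), fitted over all 21857 shared regions with Benjamini-Hochberg adjustment, and a call needed a log2 difference above 1 and an adjusted p under 0.05. ChIPs were compared over 8 libraries with genotype as a term, and DKO with WT over 4 libraries. Means ± SE are fitted. Other steps ran in Python 3.11.15 (pandas 2.3.3, numpy 2.4.6, matplotlib 3.10.9, scipy 1.17.1). Alternatives were centring, voom weights on the recovered reads, a filter on the lowest quartile, the WT clones alone, the clone as a block, each clone left out, other promoter and overlap rules, and the E14 IgG–IgG library. Tested on simulated data with 200 of 21857 regions shifted by 3 log2 units, the fits recovered 98% (total H3K4me3 against total H3K27me3), 87% (K27-K4 against K4-K27), 91.5% (K4-K27 against total H3K4me3) and 96% (K27-K4 against total H3K27me3). For DKO against WT they recovered 63.5% in K4-K27, 81.5% in K27-K4, 66% in total H3K4me3 and 88% in total H3K27me3. In the same order, 12, 13, 7 and 10 unchanged regions were also called between ChIPs, and 21, 12, 10 and 5 for DKO against WT. The simulated noise was independent between libraries, with its spread drawn from the fitted prior and no clone effect. The shift was also above the threshold of 1, so these shares do not check the fits on real libraries.

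The 4 ChIPs of each clone used chromatin of that clone and are paired. Deviations from the group means correlated at 0.00763 (reChIP orders), -0.206 (totals), 0.391 (K4-K27 and total H3K4me3) and 0.199 (K27-K4 and total H3K27me3) in WT clones, and at 0.0493, -0.116, 0.235 and 0.313 in DKO clones.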

Additional observations from a re-analysis of the deposited data

Results flagged for a closer look

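The median over members of K27-K4 minus K4-K27 was 1.04 and 0.77 in E14 replicates 1 and 2, and -1.83, -1.35, -1.79 and -1.17 in WT clones 57 and 58 and DKO clones 43 and 53. These are listed because all E14 replicates moved one way and all clones the other. The difference between E14 cells and clones was not tested. E14 region sets chose the members, and E14 cells and clones were sequenced in different batches, so that line and batch cannot be told apart. The order of the antibodies is known from the names of the libraries, and an exchange of names within a line would turn the sign of its medians. Such an exchange was not tested. In all 4 clones K4-K27 followed total H3K4me3 across members (0.78 to 0.9) and K27-K4 followed total H3K27me3 (0.607 to 0.685). In E14 replicates 1 and 2 K4-K27 correlated with total H3K27me3 at 0.612 and 0.303 and with total H3K4me3 at -0.119 and 0.209, and K27-K4 with total H3K27me3 at 0.403 and 0.399 and with total H3K4me3 at 0.135 and 0.0602.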

How the results depend on the processing

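With the total ChIPs compared in the clones, between 8013 and 9282 members were called under all alternatives (8866 as reported), and between 6240 and 7366 for the reChIP orders (6839 as reported). For K4-K27 against total H3K4me3 (616 as reported), centring gave 1120 calls and turned the balance to lower, the WT clones alone gave 7, and leaving out a clone gave 118 to 689. For K27-K4 against total H3K27me3 (8070), centring gave 4763 and the filter on the lowest quartile 4150. With the replicate block the counts were 8823, 6834, 686 and 8072 for these 4 comparisons, and the block moved no count by more than 1.5 times. No paired analysis was possible because the WT and DKO clones share no numbers, in the comparisons that follow. For DKO against WT, K4-K27 (362) gave 119 with voom weights, 232 with the filter and 125 to 235 with a clone left out, and K27-K4 (556) gave 164 to 877. Total H3K4me3 (431) gave 167 with the filter and 51 to 1232 with a clone left out. Total H3K27me3 (169) gave 248 with centring, which turned the balance to higher, 89 with voom weights and 6 to 208. Falls in both reChIPs (193) numbered 122 with centring, 106 with voom weights, 127 with the filter and 32 to 133 with a clone left out, of which 116, 103, 126 and 31 to 116 were among those reported. The share at promoters was 76.9% for members with no H3K27me3 region within 5 kb. Of 1585 recomputed calls at named members, 1380 (87.1%) were kept, 204 were lost and 1 changed direction, the total ChIPs at Apc2 and Rps15 (1.04, and -0.16 with centring). Where the cause of a change is not given by the alternative itself, the cause was not tested. Members with few reads, down to a median of 17 in a library, limit single calls.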

Other observations

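Members made up 411 of 637 shared regions on chromosome X (64.5%), against 51.9% over all chromosomes and 57.6% on chromosome 7. Among members, those away from promoters were 2714, with a median width of 2250 bp, 2.00 CG per 100 bp, K4-K27 of 0.67 and 0.19 and K27-K4 of 0.07 and -0.11 in WT clones 57 and 58. Those at promoters held 2.65 and 1.94, and 0.29 and 0.20. Jag1, a Notch ligand chosen after its values were seen, had total H3K27me3 higher in the DKO than in the WT clones (1.06 ± 0.32, adjusted p = 0.0366), and the call was lost with voom weights (1.07), without WT clone 58 (0.88), DKO clone 43 (0.89) or DKO clone 53 (1.24).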
